A study of Homo sapiens with 2 samples.

Results

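The 7 genes described here carry and restrain the signal of the receptor chain gp130 or belong to the C/EBP transcription factors: IL6ST, JAK1, STAT3, SOCS1, SOCS3, CEBPB and CEBPD. They were taken by name from the rows of a single-cell count matrix that listed 16251 genes, and all 7 were found there. The cells were MDA-MB-453, a human line from breast cancer that is wild type by the labels, grown in DMEM with serum and given for 24 hours either water as vehicle or both IL1β and TNFα, at 10 ng/ml. The time is the one in the labels and the methods of the study, while a legend of the study gives a longer one. Each condition was 1 library of cells of this 1 line, with 2822 vehicle cells and 3163 cytokine-treated cells, so the differences described were not checked in replicates and carry no p-value. Transcript 3′ ends were counted with unique molecular identifiers (UMIs), and the libraries summed to 58587996 UMIs in vehicle and 69592446 UMIs after cytokines, with medians of 20249 and 21508 UMIs per cell. Levels are UMIs per 1000000 UMIs of a library (CPM), and the intervals in parentheses are exact 95% ones for counting error alone.

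gp130, the product of IL6ST, is the signalling chain shared by the receptors for IL6, IL11, LIF and oncostatin M. When a ligand brings receptor chains together, the kinase JAK1 on their inner tails is activated, STAT3 is phosphorylated and moves to the nucleus, and SOCS proteins made in response shut the receptor complex down. C/EBPβ and C/EBPδ, from CEBPB and CEBPD, are leucine zipper factors known for driving acute phase genes together with STAT3 and NF-κB, the factor that IL1β and TNFα activate. In mammary epithelium the gp130 and STAT3 route is known for its part in the regression of the gland after lactation.

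The 5 epithelial and luminal apocrine markers EPCAM, KRT8, KRT18, KRT19 and FGFR4 were measured in both libraries, and KRT8, KRT18 and KRT19 were at least 2-fold higher after cytokines, where 4.29% of all measured genes were. In G1 cells alone only KRT8 of these 5 stayed at 2-fold, with a log2 ratio of 1.53, while KRT18 and KRT19 stood at 0.95 and 0.99. The labels call the line triple-negative, a name for tumours without the receptors ESR1, PGR and ERBB2. ESR1 and PGR were not among the listed genes, while ERBB2 stood at 129 CPM in vehicle and 208 CPM after cytokines. Among 10 markers of immune, endothelial, stromal, red blood and basal cells, 6 were not listed, and LYZ, PECAM1 and ACTA2 stayed under 0.2 CPM in both libraries. The collagen gene COL1A1 was the exception, at 20.9 and 20.1 CPM. By the deposited phase calls, 36.6% of vehicle cells and 88.5% of cytokine-treated cells were in G1, and 45.1% and 10.2% were in S, so levels are also given within a phase.

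IL6ST lies on the minus strand of chromosome 5 (chr5:55935095-55995022, GRCh38, GENCODE v44), SOCS1 on the minus strand of chromosome 16 (chr16:11254417-11256204) and CEBPB on the plus strand of chromosome 20 (chr20:50190830-50192668). JAK1 is on chromosome 1, and STAT3 and SOCS3 are both on chromosome 17. The bases just before the start of transcription of IL6ST, SOCS1 and CEBPB are shown because these genes were at least 2-fold higher after cytokines, as described below. The sequences are RefSeq promoter windows of GRCh38.p14, 5′ to 3′ on the strand of the gene, and the first one is shortened to the bases that precede the GENCODE start. Capitals mark elements of core promoters, searched on both strands. They are the GC box, with the letters GGGCGG, the box named for its letters CCAAT, and the TATA box, searched here as TATAAA. The IL6ST run covers chr5:55995023-55995213, the SOCS1 run chr16:11256205-11256454 and the CEBPB run chr20:50190580-50190829.
IL6ST: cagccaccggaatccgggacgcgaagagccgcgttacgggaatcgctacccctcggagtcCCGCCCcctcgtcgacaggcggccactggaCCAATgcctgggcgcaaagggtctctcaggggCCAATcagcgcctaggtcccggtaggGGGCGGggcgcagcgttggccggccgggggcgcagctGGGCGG
SOCS1: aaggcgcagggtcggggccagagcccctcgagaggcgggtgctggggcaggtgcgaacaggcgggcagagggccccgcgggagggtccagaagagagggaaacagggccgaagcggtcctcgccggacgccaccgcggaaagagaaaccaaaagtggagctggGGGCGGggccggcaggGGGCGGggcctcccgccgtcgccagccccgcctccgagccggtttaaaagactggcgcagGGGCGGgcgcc
CEBPB: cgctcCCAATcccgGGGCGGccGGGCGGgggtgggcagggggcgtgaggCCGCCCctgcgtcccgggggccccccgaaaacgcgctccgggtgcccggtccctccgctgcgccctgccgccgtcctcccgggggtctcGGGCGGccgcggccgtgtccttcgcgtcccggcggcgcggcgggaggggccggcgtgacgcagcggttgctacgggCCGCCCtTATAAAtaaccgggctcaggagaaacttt
The IL6ST run held 3 GC boxes and 2 CCAAT boxes, the SOCS1 run 3 GC boxes, and the CEBPB run 5 GC boxes, 1 CCAAT box and 1 TATA box. CEBPB has another window, chr20:50190333-50190582, which is not shown. It held 4 GC boxes, 0 CCAAT boxes and 0 TATA boxes. Over 35116 windows of 250 bases in the RefSeq table, 42.6% held a GC box, 32.0% a CCAAT box and 10.7% a TATA box. These 3 elements were chosen after the windows had been read. The letters of a STAT site (TTCNNNGAA), a C/EBP site (TTGCNNAA) and an NF-κB site (GGGNNNTTCC) were searched in 10 windows of 6 of the genes, CEBPD having no window, and none was found. Of all windows, 6.57%, 9.05% and 5.67% held these letters, and their absence from these windows bears only on the letters.

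The receptor chain showed the largest difference of the 7. IL6ST had 48 UMIs in the vehicle library and 1391 in the cytokine-treated library, or 0.819 CPM (0.604 to 1.09) and 19.99 CPM (19.0 to 21.1). The treated library was 24.4-fold higher, a log2 ratio of 4.61 (4.19 to 5.06). The vehicle level lay below the limit of 5 CPM at which a gene counted as measured. The annotation also holds a processed pseudogene, IL6STP1, and how reads shared with it were counted is not given in the sources used here.

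JAK1, the kinase bound to gp130, had 1638 and 3214 UMIs, or 28.0 CPM (26.6 to 29.3) in vehicle and 46.2 CPM (44.6 to 47.8) after cytokines. Its log2 ratio was 0.72 (0.64 to 0.81), a 1.65-fold higher level. STAT3, the transcription factor downstream, had 1141 and 1665 UMIs, or 19.5 CPM (18.4 to 20.6) and 23.9 CPM (22.8 to 25.1). Its log2 ratio was 0.30 (0.19 to 0.41). Neither gene reached 2-fold. The intervals of the libraries did not overlap for either gene, but at these totals small differences also part them. For EPCAM they lay apart at a log2 ratio of 0.10 (0.06 to 0.13). How many of all genes had intervals apart was not counted. JAK1 is overlapped on its own strand by the noncoding gene LINC01359, so reads of the pair may not be separable.

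The feedback inhibitors SOCS1 and SOCS3 differed from each other. SOCS1, which blocks JAK kinases directly, had 237 and 593 UMIs, or 4.05 CPM (3.55 to 4.59) in vehicle and 8.52 CPM (7.85 to 9.24) after cytokines, a log2 ratio of 1.07 (0.86 to 1.30). SOCS3, which binds gp130 and is a standard STAT3 target, had 109 and 115 UMIs, or 1.86 CPM (1.53 to 2.24) and 1.65 CPM (1.36 to 1.98). The SOCS3 intervals overlapped, its log2 ratio was -0.17 (-0.56 to 0.22), and it was below the limit of a measured gene in both libraries. RMI2 overlaps SOCS1 on the opposite strand, and it stood at 63.6 CPM in vehicle and 14.2 CPM after cytokines. Whether the counting used strand is not given in the sources used here.

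Both C/EBP genes were higher after cytokines. CEBPB had 2332 and 8508 UMIs, or 39.8 CPM (38.2 to 41.5) and 122 CPM (120 to 125), a 3.07-fold difference with a log2 ratio of 1.62 (1.55 to 1.69). CEBPD had 374 and 2295 UMIs, or 6.38 CPM (5.75 to 7.06) and 33.0 CPM (31.6 to 34.4), a 5.17-fold difference with a log2 ratio of 2.37 (2.21 to 2.53). The antisense gene CEBPB-AS1, which overlaps CEBPB, had 26 and 27 UMIs.

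**Figure D1:**
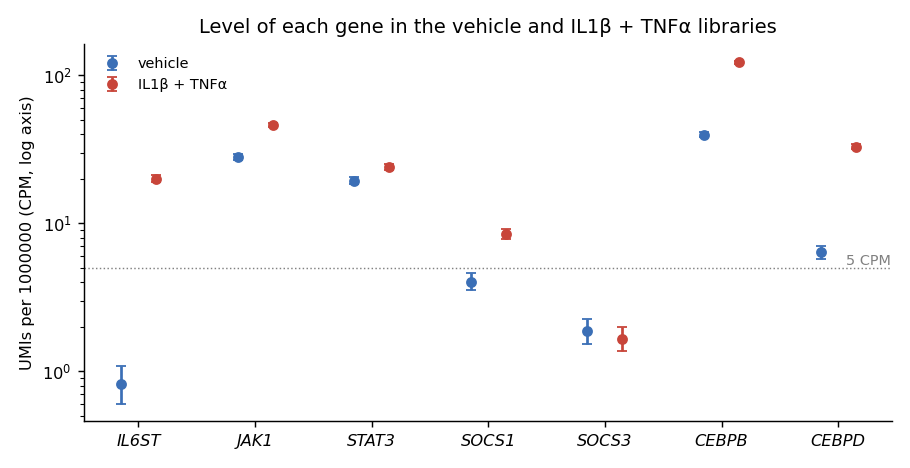
Level of each of the 7 genes in CPM on a log axis in the vehicle and cytokine-treated libraries, with 1 point per library and bars for exact 95% Poisson intervals. The IL6ST points lie furthest apart, at 0.819 and 19.99 CPM, and the SOCS3 intervals overlap.

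Of the 6 genes that reached 5 CPM in either library, 4 (IL6ST, SOCS1, CEBPB and CEBPD) were at least 2-fold higher after cytokines with the interval on that side, and 0 were at least 2-fold lower. Of all 9192 measured genes, 4.29% were higher and 7.48% lower by the same rule. The median log2 ratio was 1.07 over the 7 genes, with SOCS3 that was not measured, and 1.35 over the 6 measured ones. Over all measured genes it was -0.20. The 7 genes were chosen with earlier results of these data known, so these counts and medians are a description. IL6ST and SOCS1 counted as measured only through the cytokine-treated library and could not have been called lower. With TMM factors or median-of-ratios size factors in place of library totals, the scaling raised every log2 ratio by 0.18 or 0.19, and higher genes then made up 52.4% or 53.5% of all called genes in place of 36.4%. Under these scalings SOCS3 changed sign and reached at most 0.02, and the other 6 genes kept their direction.

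Within G1 cells, 1032 in vehicle and 2799 after cytokines, IL6ST, CEBPB and CEBPD were at least 2-fold higher, beside 4.44% of 9005 measured genes. SOCS3 was not measured in G1 cells, so it could not be called. None of the other genes of the 7 was lower, beside 4.43% of measured genes. IL6ST and SOCS1, at 1.05 and 4.89 CPM in vehicle G1 cells, counted as measured only through the treated cells. Neither could have been called lower. The G1 log2 ratios were 4.24 (3.62 to 4.93) for IL6ST, 1.61 (1.50 to 1.71) for CEBPB and 2.68 (2.40 to 2.98) for CEBPD. SOCS1 in G1 stood at 4.89 CPM in vehicle and 9.02 CPM after cytokines, a log2 ratio of 0.88 (0.57 to 1.21) that was under 2-fold. STAT3 in G1 stood at 22.2 CPM and 24.1 CPM, and the interval of its log2 ratio, 0.12 (-0.04 to 0.27), included 0. JAK1 had a log2 ratio of 0.71 in G1, close to that of all cells.

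Within S cells, 1273 in vehicle and 324 after cytokines, IL6ST, CEBPB and CEBPD again passed 2-fold upward, beside 3.22% of 9168 measured genes. SOCS1 and SOCS3 were not measured in S cells, so neither could be called. None of the other genes of the 7 passed 2-fold downward, beside 2.14% of measured genes. Here too IL6ST, at 0.622 CPM in vehicle, counted as measured only through the treated cells and could not have been called lower. The log2 ratios in S were 5.05 for IL6ST, 1.62 for CEBPB and 1.95 for CEBPD. SOCS1 in S stood at 3.47 CPM in vehicle and 4.44 CPM after cytokines, with a log2 ratio of 0.35 (-0.27 to 0.94). In the cytokine-treated library the log2 ratio of SOCS1 in S over G1 was -1.02 (-1.59 to -0.51). Of the 324 treated S cells, 255 were in cluster 2 of the clusters described below, where SOCS1 stood at 4.36 CPM. In treated G1 cells of clusters 0, 1, 3, 4 and 5 it ran from 4.47 CPM in cluster 5 to 14.8 CPM in cluster 1. This ratio therefore does not separate phase from cluster. In vehicle CEBPD was higher in S, at 8.08 CPM in S and 5.19 CPM in G1, and STAT3 stood at 16.7 CPM in S and 22.2 CPM in G1. The 40 cytokine-treated cells called G2 or M were too few to compare, since groups under 50 cells were left out.

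The deposited table puts the cells of both libraries in 6 clusters numbered 0 to 5. The methods of the study describe an integration of both libraries, made for display. Only the gap between the S and the G2-M score was regressed out. Clusters still followed phase in part, since 0% of vehicle cells and 1.06% of treated cells of cluster 2 were in G1. The settings of the clustering are not given in the sources used here. Clusters made from these cells can follow the genes described, so levels by cluster are a description. IL6ST, CEBPB and CEBPD were at least 2-fold higher after cytokines in 6 of 6 clusters. By the same rule 4.71%, 4.29%, 3.84%, 4.33%, 4.02% and 4.01% of measured genes were higher in clusters 0, 1, 2, 3, 4 and 5. IL6ST stayed at 1.20 CPM or less in vehicle cells of every cluster. It therefore counted as measured only through the treated cells and could not have been called lower. Across clusters the log2 ratios ran from 4.40 to 5.73 for IL6ST, from 1.40 to 1.97 for CEBPB and from 2.05 to 2.78 for CEBPD. The vehicle IL6ST counts behind these ratios were 3 to 14 UMIs a cluster, and in cluster 3, with 3 vehicle UMIs, the interval ran from 4.17 to 8.02.

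**Figure D2:**
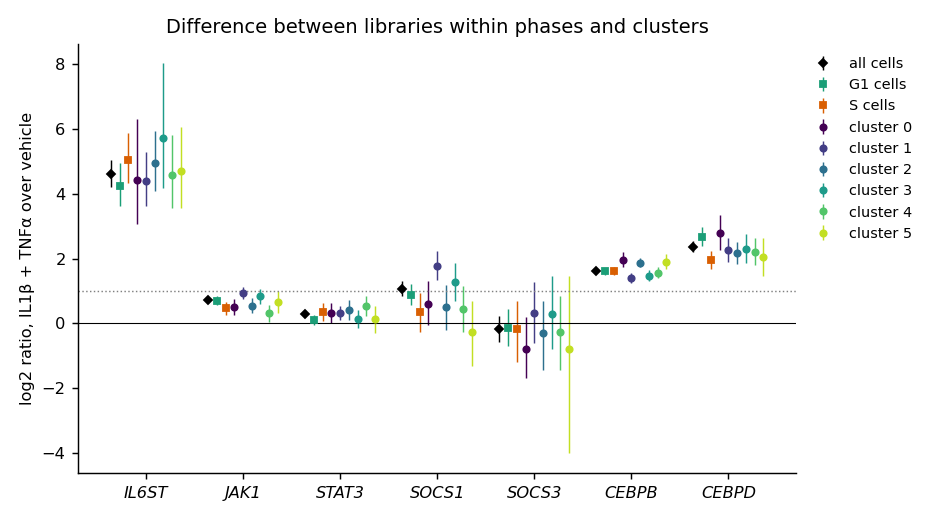
Log2 ratio of cytokine-treated over vehicle cells for each of the 7 genes in all cells, in G1 and S cells and in each cluster, with exact 95% intervals and a dotted line at 2-fold. IL6ST, CEBPB and CEBPD lie above the line in every group drawn, and SOCS1 runs from -0.26 to 1.78 across clusters.

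JAK1 log2 ratios ran from 0.31 to 0.94 across clusters and STAT3 log2 ratios from 0.14 to 0.55, and neither gene reached 2-fold in any cluster. The STAT3 intervals included 0 in clusters 3 and 5. SOCS1 was measured in 5 of 6 clusters, all but cluster 2, and was at least 2-fold higher in 2 of these, numbers 1 and 3. In both its vehicle level was under 5 CPM, so it counted as measured only through the treated cells. In cluster 1 SOCS1 stood at 4.30 CPM (3.19 to 5.67) in vehicle and 14.7 CPM (12.9 to 16.7) after cytokines. In cluster 5 it stood at 5.69 CPM (4.10 to 7.69) and 4.75 CPM (2.46 to 8.30), with overlapping intervals.

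Among cytokine-treated cells, JAK1 and SOCS1 were highest in cluster 1 (728 cells). The kinase gene stood there at 61.7 CPM (57.9 to 65.7), above the intervals of the other 5 clusters, whose levels ran from 35.4 to 51.5 CPM. SOCS1 at 14.7 CPM was also above the intervals of the others, which ran from 4.53 to 9.65 CPM. IL6ST in cluster 1 was 25.4 CPM (22.9 to 28.0), and its interval overlapped those of clusters 2, 3, 4 and 5. IL6 itself, a gp130 ligand, stood at 8.18 CPM in cluster 1 and at 0.671 CPM or less in the other treated clusters.

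Cluster 0 (1100 treated cells) was the opposite for the receptor. IL6ST there was 14.8 CPM (13.3 to 16.4), the lowest of the treated clusters and below the interval of each other one. CEBPD in cluster 0 was 38.0 CPM (35.6 to 40.5), the highest, and its interval overlapped that of cluster 4. CEBPB ran from 107 CPM in cluster 3 to 146 CPM in cluster 5. TDO2, the tryptophan-degrading enzyme that the study is about, stood at 788 CPM in cluster 0 and 260 CPM in cluster 1, the highest and the lowest of the treated clusters.

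**Figure D3:**
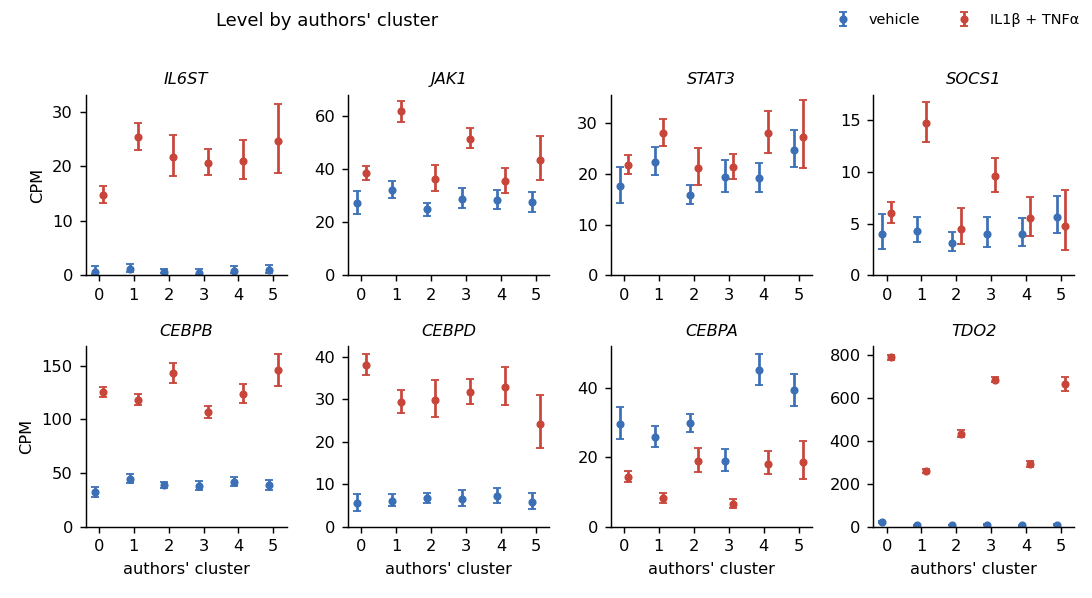
Level in CPM by cluster in vehicle and cytokine-treated cells, with exact 95% Poisson intervals, for IL6ST, JAK1, STAT3, SOCS1, CEBPB and CEBPD and, for comparison, CEBPA and TDO2; the vertical axes start at 0 and differ between panels. JAK1 and SOCS1 are highest in treated cells of cluster 1, and IL6ST is lowest in those of cluster 0.

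Cluster and phase were also held together, with G1 cells of clusters 0, 1, 3, 4 and 5 and S cells of cluster 2. Log2 ratios in these 6 groups ran from 3.33 to 6.14 for IL6ST, from 1.34 to 1.92 for CEBPB and from 2.01 to 3.20 for CEBPD. The highest IL6ST ratio, in G1 cells of cluster 3, rested on 1 vehicle UMI, with an interval from 3.66 to 11.45. The lowest, in G1 cells of cluster 0, rested on 4, with an interval from 1.96 to 5.21. Vehicle CEBPD stood at 4.10, 4.69 and 4.35 CPM in G1 cells of clusters 0, 1 and 4. There it counted as measured only through the treated cells, as IL6ST did in every group. Shares over all genes were not counted in these groups. SOCS1 log2 ratios ran from -0.52 to 1.66. The gene was measured in 5 of the 6 groups, all but the S cells of cluster 2. It was at least 2-fold higher in 1 of these, the G1 cells of cluster 1. Its vehicle level there, 4.69 CPM, was under the limit of a measured gene. In G1 cells of cluster 3 SOCS1 stood at 0.97 (0.24 to 1.79), under 2-fold.

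The share of cells in which a transcript was seen was compared after thinning every cell to 15000 UMIs, which kept 2586 vehicle and 3033 treated cells and left out 236 and 130 shallower ones. IL6ST was seen in 1.55% (1.11 to 2.10) of vehicle cells and 25.7% (24.1 to 27.3) of treated cells, and in 1.70% and 34.1% without thinning. A treated cell with IL6ST had mostly 1 UMI, since 21.5% of cells had 1, 4.22% had 2 to 4, and none had more. CEBPB was seen in 43.1% (41.2 to 45.1) and 79.8% (78.3 to 81.2) of cells, or 54.3% and 89.3% without thinning, and 5.93% of treated cells held 5 or more UMIs. CEBPD was seen in 8.82% (7.75 to 9.98) and 35.6% (33.9 to 37.3), or 12.3% and 45.1% without thinning.

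JAK1 was seen in 33.6% and 47.5% of thinned cells (43.5% and 58.6% without thinning) and STAT3 in 25.0% and 28.9% (33.2% and 39.9% without thinning). SOCS1 was seen in 6.07% (5.18 to 7.06) and 10.3% (9.26 to 11.5), or 7.90% and 14.3% without thinning. SOCS3 was seen in 2.98% (2.36 to 3.71) and 2.34% (1.83 to 2.94), with overlapping intervals. For the other 6 genes the intervals lay apart with the treated share higher. Shares were not computed over all genes, so this count has no background and is a description. Free RNA in droplets can add UMIs to cells that do not make a transcript, and the libraries held no cell type without these genes in which to measure it.

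The spread of counts between cells was also read from the thinned data. The variance of thinned counts over their mean, which is 1 for pure counting, was 1.02 in vehicle and 1.38 in treated cells for SOCS1, 1.02 and 1.28 for JAK1, 1.11 and 1.33 for CEBPB, and 1.03 and 1.33 for CEBPD. For IL6ST it was 0.985 and 1.07, and for STAT3 1.03 and 1.06. This measure rises with the level even where the relative spread is the same. Its excess over 1, divided by the mean count, was 0.186 and 0.179 for CEBPB, so the relative spread of CEBPB was close in both libraries. It was 0.352 and 3.04 for SOCS1, 0.0380 and 0.406 for JAK1, and 0.329 and 0.649 for CEBPD. At least 3 of the 7 genes were seen in 7.97% of vehicle cells and 41.2% of treated cells, and none of them in 23.3% and 4.22%. Such counts were not made for other sets of genes, so these have no background and are a description.

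**Figure D4:**
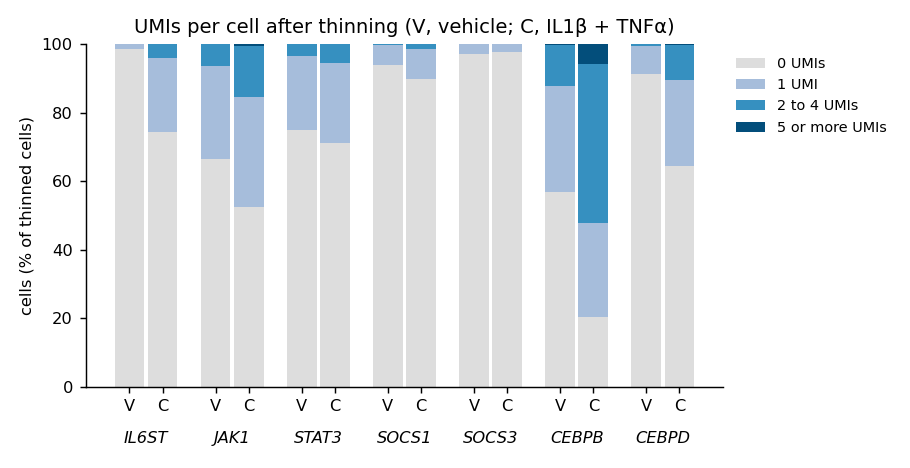
Share of thinned cells with 0, 1, 2 to 4 and 5 or more UMIs of each of the 7 genes, as stacked bars from 0 to 100% for the vehicle (V) and cytokine-treated (C) libraries. CEBPB was seen in 79.8% of treated cells, and most cells with IL6ST had 1 UMI.

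The ligands were sparse. Of 8 gp130 ligand genes, 6 were listed and 0 reached 5 CPM in either library. IL6 had 9 UMIs in vehicle, all in 1 cell of cluster 1, and 157 UMIs in 52 treated cells, of which 1 cell held 23. Cluster 1 held 33 of those 52 cells and 82.8% of the UMIs. LIF and IL27 each had 3 UMIs in vehicle and 22 after cytokines, a log2 ratio of 2.63 (0.89 to 5.01). The intervals of the remaining listed ligands included 0, with log2 ratios of -0.83 for IL11, -0.54 for CLCF1 and -0.03 for CNTF, on 22 UMIs or fewer in a library. Of 6 partner receptors that pair with gp130, 5 were listed and 0 were measured. OSMR, the oncostatin M receptor chain, had 54 and 249 UMIs, or 0.922 CPM (0.692 to 1.20) and 3.58 CPM (3.15 to 4.05). IL6R, the IL6-binding chain, had 62 and 75 UMIs, with a log2 ratio of 0.03 (-0.48 to 0.54).

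Of the other JAK and STAT genes described here, 3 were measured, and 0 were at least 2-fold higher or lower. Over all measured genes 4.29% were higher and 7.48% lower. TYK2, a kinase of the JAK family, was 10.2 CPM in vehicle and 13.9 CPM after cytokines, a log2 ratio of 0.45 (0.30 to 0.60). STAT6, the STAT of IL4 responses, had a log2 ratio of 0.43, and STAT2 one of 0.09. Of 16 regulators of gp130 signalling, all measured, 0 were at least 2-fold higher or lower and the median log2 ratio was -0.24, near that of all genes. The phosphatase gene PTPN6 had the highest, 0.82 (0.64 to 0.99), and reached 1.01 with median-of-ratios size factors. PIAS2, of the protein inhibitors of activated STATs, had the lowest, -0.73 (-0.86 to -0.61), and the SOCS relatives SOCS4 and SOCS7 stood at -0.51 and -0.50.

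In the rest of the C/EBP family and its partners, 6 genes were measured. Of these 0 were higher and 1 was lower, beside 4.29% and 7.48% of all measured genes. That gene was CEBPA, which encodes C/EBPα, a factor known for differentiation and for restraint of the cell cycle. CEBPA stood at 31.2 CPM (29.8 to 32.7) in vehicle and 12.4 CPM (11.5 to 13.2) after cytokines, a log2 ratio of -1.34 (-1.45 to -1.22), while CEBPB and CEBPD were higher. CEBPA was seen in 35.2% of thinned vehicle cells and 16.9% of treated cells. Its log2 ratio was -1.38 in G1 cells and -0.88 in S cells. It was thus under 2-fold in S cells, and also in cluster 2, at -0.64. CEBPZ stood at -0.75, CEBPG at -0.49 and DDIT3 at 0.27 on the log2 scale.

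Of 20 STAT3 target genes, 15 were listed and 10 measured, of which 1 was at least 2-fold higher and 0 lower, with a median log2 ratio of 0.23. Over all measured genes 4.29% were higher. TIMP1, an inhibitor of matrix metalloproteinases, was the one, at 68.0 CPM in vehicle and 209 CPM after cytokines, a log2 ratio of 1.62 (1.57 to 1.67). The kinase gene PIM3 stood at 0.86, and at 1.04 and 1.06 with TMM and median-of-ratios scaling, where the count of higher STAT3 targets was 2. On library totals the AP-1 gene JUNB stood at 0.58 and cyclin D1 (CCND1) at 0.31. Of 8 acute phase genes known as C/EBP targets, 5 were listed and 4 measured, and these 4 had 0 UMIs in vehicle. They therefore counted as measured only through the treated library and had to be higher, so their count says nothing beside the 4.29% of all genes. SAA1 had 0 UMIs in vehicle and 12156 after cytokines, at least 3411-fold higher against a floor of 3 UMIs in the vehicle library, and its exact interval began at 2774-fold. LCN2, SERPINA3 and SAA2 had 3064, 3711 and 1010 UMIs after cytokines. SAA1 and SAA2 are near-identical, and how the counting split their reads is uncertain.

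**Figure D5:**
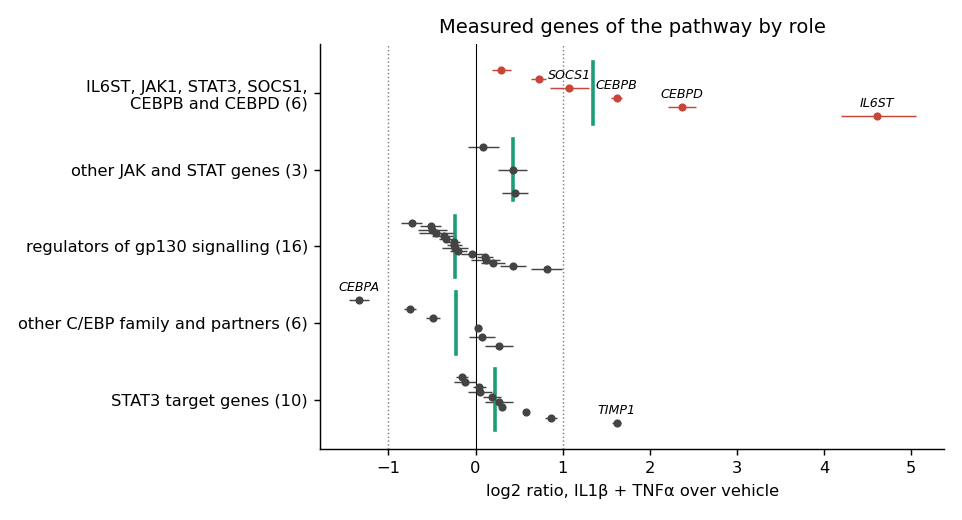
Log2 ratio of cytokine-treated over vehicle cells for the measured genes of 5 roles, 1 point per gene with exact 95% intervals, a green line at the median of each list and dotted lines at 2-fold in each direction. Genes past 2-fold are named; outside the top row these are TIMP1, on the higher side, and CEBPA, on the lower side. The 4 acute phase genes at 0 UMIs in vehicle have no finite ratio and are not drawn.

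Across cells of a library the 7 genes had little in common. Pearson r of log-normalized values ran from -0.02 to 0.10 over the 21 pairs in the 3163 treated cells, with a median of 0.04, and from -0.04 to 0.02 in the 2822 vehicle cells. Cells of a library share that library and its sparse counts, so these values are a description, and values this low are not read as a relation. The highest in treated cells was JAK1 with SOCS1. With TDO2, r in treated cells ran from -0.11 for JAK1 to 0.04 for CEBPD.

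The genes most like each of the 7 were sought among those at 20 CPM or more in the same library, 4383 in treated and 4801 in vehicle cells. For JAK1 in treated cells these were TRIM29 (r 0.26), TMSB4X (0.21) and THBS1 (0.21). For CEBPB they were CSTB (0.22), SOD2 (0.18) and MMP13 (0.17), and for CEBPD NFKBIA (0.14), CXCL8 (0.14) and CSTB (0.13). STAT3 reached 0.09 with LINC02015, 0.09 with IGFBP5 and 0.08 with TNFRSF1A. In vehicle cells the highest were 0.10 for CEBPB with FTH1 and 0.08 for JAK1 with FLNA. IL6ST fell just under the limit of 20 CPM, and its highest values, 0.10 with TRIM29, 0.10 with LMO4 and 0.09 with FLNA, were computed after its level was seen.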

How the data were processed

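Single-cell RNA was measured in 1 vehicle and 1 cytokine-treated culture of MDA-MB-453, prepared with a 10x Genomics 3′ kit. UMIs were counted by the authors on GRCh38 (Cell Ranger 3.1.0), and the deposited counts per gene and cell are not normalized. Per the study's methods, Seurat 4.0.4 kept cells under 50000 UMIs, between 3000 and 5000 genes and under 15% mitochondrial UMIs, which can remove unequal numbers of cells from the cultures. The methods state that 3000 cells were collected, and the files hold 2822 and 3163 barcodes, 8 of them in both libraries. The authors also deposited for each cell the percent of mitochondrial UMIs, a phase call and a cluster number. Summed counts equalled the cell table in all 5985 cells.

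Groups came from the sample labels. UMIs were summed per library and divided by its total, log2 ratios were given exact conditional binomial intervals, levels exact Poisson intervals and shares Clopper-Pearson intervals. With 1 library per group no test was made. UMIs count molecules, and intervals leave out the spread between cultures and between cells. A gene at 0 in vehicle was set to a floor of 3 UMIs over the library. The thinning depth was the 10th percentile of UMIs per cell in the shallower library, rounded down. Pearson r used ln(1 + 10000 × share of the UMIs of a cell). Doublets were not removed; an alternative left out cells over the 95th percentile of UMIs.

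The 7 genes and the pathway lists were chosen with earlier results of these data known. Genes named were the 7, TDO2, up to 4 measured genes per list furthest from 0 in log2 ratio, and the 3 highest r for each of the 7 at 20 CPM or more. Some genes of the lists are not reported here. OSMR, IL6R, the ligands and the other genes under the 5 CPM limit, RMI2, CEBPB-AS1 and the genes given with IL6ST were added after their values were seen. Positions are from GENCODE v44, which may differ from the gene models counted. In simulated Poisson counts built on vehicle means, 200 of 16251 genes were changed. Of these 197 were measured and all 197 were called, and none of 8749 unchanged genes was called. Intervals held the true ratio in 95.0% of genes. The simulated counts held no spread between cells or cultures, so they check the computation alone. Python 3.11.15, scipy 1.17.1, edgeR 4.0.16 and DESeq2 1.42.0 (scaling factors only) were used.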

Additional observations from a re-analysis of the deposited data

How the results depend on the processing

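No paired analysis was possible because each condition was 1 library. With measured genes limited to CPM 20 or more, 2 of the 7 genes (CEBPB and CEBPD) counted as at least 2-fold higher in place of 4, since IL6ST and SOCS1 were under that limit. Among treated cells, 1 pair, JAK1 with SOCS1, had r of 0.1 or more in G1 cells and 1 pair with thinned counts, in place of 0, and the cause was not tested. The other 50 recomputed counts and medians that answer a comparison stayed close to those reported. Of the values for single genes and lists, 195 stayed close, 165 moved and none of the called ones changed sign. Some counts within the lists moved. In G1 cells alone 1 epithelial marker was higher in place of 3, without KRT18 and KRT19. PIM3 brought the higher STAT3 targets from 1 to 2 under TMM and median-of-ratios scaling, and PTPN6 brought the regulators from 0 to 1 under median-of-ratios scaling. OSMR brought the partner receptors from 0 to 1 with totals that left out ribosomal protein and mitochondrially encoded genes, since it then reached the 5 CPM limit.

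Over 8 alternatives of scaling, cell choice and summing, log2 ratios ran from 4.24 to 4.80 for IL6ST, 0.67 to 0.92 for JAK1, 0.12 to 0.49 for STAT3, 0.88 to 1.27 for SOCS1, 1.57 to 1.81 for CEBPB and 2.32 to 2.68 for CEBPD. SOCS1 was under 2-fold in G1 cells and in sums of thinned UMIs, at 0.88 and 0.99, and was called in G1 under TMM and median-of-ratios scaling. SOCS3 ran from -0.35 to 0.02. In G1 cells alone the STAT3 shares had overlapping intervals. Depth limits SOCS3, the ligands and vehicle IL6ST, which rest on few UMIs. The alternatives for the pathway lists and for counts within a phase were chosen after seeing the data.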

Other observations

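Of the listed STAT3 target genes, 5 stayed under the 5 CPM limit. MUC1, a surface mucin on the STAT3 target list, had 2 and 49 UMIs, a log2 ratio of 4.37 (2.44 to 7.45). LBP, the lipopolysaccharide-binding protein, had 5 and 81 UMIs, a log2 ratio of 3.77 (2.49 to 5.43), and IL4R had 132 and 300 UMIs, a log2 ratio of 0.94 (0.64 to 1.24). BCL6 had 115 and 202 UMIs, a log2 ratio of 0.56 (0.23 to 0.91). PIM1 went the other way from its relative PIM3, with 70 UMIs in vehicle and 25 after cytokines, a log2 ratio of -1.73 (-2.45 to -1.06). On the acute phase list, complement C3, just under the same limit, had 0 UMIs in vehicle and 335 after cytokines, or 4.81 CPM.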
